A study of Drosophila melanogaster with 30 samples.

Results

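Adding the homeobox gene ladybird early (lbe) to collier (col, listed as knot, kn) was examined in whole Drosophila melanogaster embryos at the late embryonic stage at which the trachea fill with air (AFT). Embryos carrying elav-Gal4 over UAS-col-HA, UAS-myc-lbe (col + lbe) were set against embryos carrying elav-Gal4 over UAS-col-HA (col), so that the control without a transgene is not the reference. Genes entered the comparison with a mean of at least 1 TPM (a unit of transcript abundance that corrects for transcript length and scales each library to a fixed sum) in either genotype, which left 10007 of the 14077 genes in the table. The comparison covers 6 of the series' 30 samples, 3 biological replicates per genotype with more than 200 embryos each. At AFT the series also holds a control (elav-Gal4 over a wild-type OregonR chromosome), lbe (elav-Gal4 over UAS-myc-lbe) and ap + eya (UAS-Flag-Ap with elav-Gal4 over UAS-eya-HPC4), and all 5 genotypes were also collected at stage 16 (St16). The elav-Gal4 driver, shared by all genotypes, is active mainly in postmitotic neurons of the whole nervous system.

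The deposited table holds the authors' mean of each genotype, so every difference below is a size with no replicate error and no test. Differences are in log2(TPM + 1), a scale that shrinks fold changes where levels are low. A gene is called higher or lower at 2-fold or more on that scale, and otherwise is described by its values only. The double line differs from the col line by a second UAS construct as well as by lbe expression. In RNA from whole embryos, fewer cells of a type and less RNA per cell cannot be told apart.

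The transcription factors col and lbe belong to the regulatory network of the Apterous neurons of the ventral nerve cord, a small set of peptidergic cells. In that network col, which encodes a COE family factor, acts upstream of the LIM-homeodomain gene apterous (ap) and the co-factor gene eyes absent (eya), and these act with the bHLH gene dimmed (dimm), a general regulator of peptidergic cells, on the neuropeptide gene Nplp1. The gene lbe is also known for identity roles in muscle, in the heart and in the neuroblast lineage that makes these neurons.

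The genes on the transgenes were examined first. The level of lbe (FBgn0011278, 3R from 21441577 to 21446537, minus strand, BDGP6.54 annotation) was 0.0832 TPM in col and 88.0 TPM in col + lbe, against 0.0488 in the control, 48.9 in lbe and 0.0838 in ap + eya. It was therefore high in the 2 genotypes that carry the lbe construct and near 0 in the other 3. The neighbouring homeobox gene lbl, its close relative, was at 3.50 TPM in col and 3.93 in col + lbe. The level of kn (FBgn0001319, 2R from 14772650 to 14807061, minus strand) was 43.4 TPM in col and 104.5 in col + lbe, a ratio of 2.41, although both genotypes carry the col construct. Without the col construct the means were 12.4 TPM (control), 5.15 (lbe) and 8.98 (ap + eya). At St16 kn stood at 92.4 TPM in col and 81.0 in col + lbe (difference -0.19). The higher level of col transcript in the double line was thus seen at AFT and not at St16. Reads of a transgene and of the gene itself cannot be told apart, and how far the extra kn contributed to other differences was not tested.

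Of the 19 Apterous neuron genes listed, 6 were higher in col + lbe than in col (lbe, Nplp1, ap, eya, kn, dimm) and 0 were lower, with a list median 0.36 above that of all genes. The call of lbe was fixed by the design, and kn is on the other transgene. Only Nplp1, ap, eya and dimm are therefore calls outside the constructs. Across all 10007 genes, 1.70% were higher and 0.839% lower. The gene ap (FBgn0267978, 2R from 5706202 to 5727525) was at 4.67 TPM in col and 31.9 in col + lbe, a difference of 2.53. The control stood at 3.03 TPM, lbe at 3.41 and ap + eya, which carries an ap transgene, at 29.8. The AFT level of ap in col + lbe was thus close to that in ap + eya, where reads of the transgene and of the gene itself cannot be told apart. The gene eya (FBgn0000320, 2L from 6527447 to 6546976) followed the same order, with 3.55 TPM in col, 23.8 in col + lbe, 2.50 in the control, 2.96 in lbe and 25.7 in ap + eya, a difference of 2.45. At St16 the differences between col + lbe and col were 1.81 for ap and 1.39 for eya, and both genes stood higher in ap + eya, at 92.8 and 88.8 TPM, than in col + lbe, at 55.9 and 36.6 TPM.

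Nplp1 (FBgn0035092, 2R from 25032377 to 25040377, plus strand), a neuropeptide precursor gene of Apterous neurons, was at 81.9 TPM in col and 1339.7 in col + lbe. The ratio was 16.4 and the difference 4.02. The control mean was 42.0 TPM, that of lbe 70.9 and that of ap + eya 47.0. Among the 5 means that of col + lbe stood apart. The ap + eya embryos, with AFT levels of ap and eya reads like those of col + lbe, had an Nplp1 level close to that of the control. At St16 Nplp1 was at 15.4 TPM in col and 45.2 in col + lbe, a smaller difference of 1.50. The gene dimm (FBgn0023091, on 2L from 21331756 to 21342155) was at 0.900 TPM in col and 3.51 in col + lbe, with 0.585 to 0.981 in the other genotypes. Its difference of 1.25 at AFT was close to the 1.14 at St16, but it fell short of 2-fold with a pseudocount of 5, since its levels are low. FMRFa, another neuropeptide gene of Apterous neurons, was at 2.48 TPM in col and 5.45 in col + lbe (0.89), beside 4.53 in the control, and so was not called.

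**Figure D1:**
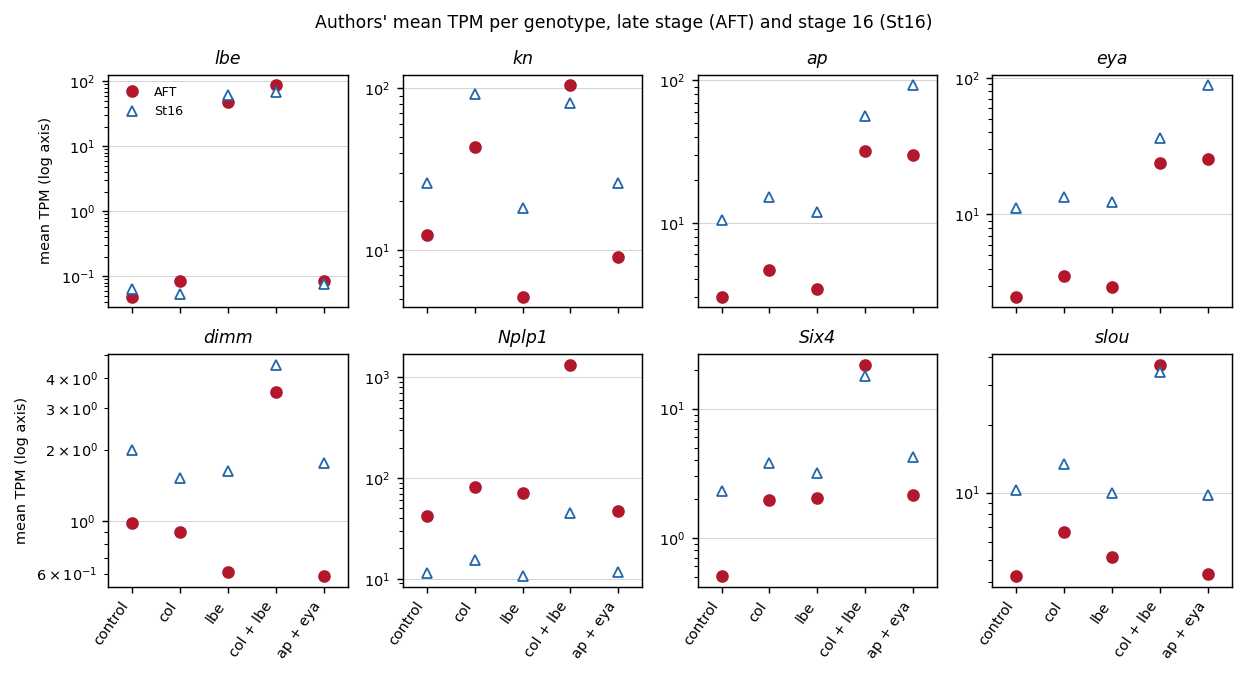
Mean TPM on log axes for 8 genes in the 5 genotypes at AFT (filled circles) and St16 (open triangles), 1 authors' mean per point and no error bars. In col + lbe, Nplp1 stands at 1339.7 TPM at AFT above 4 genotypes between 42.0 and 81.9, while ap and eya are high in both col + lbe and ap + eya.

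In all, 170 genes were higher in col + lbe than in col and 84 were lower, together 2.54% of those compared. Among the higher genes 25 differed at least 4-fold and 8 at least 8-fold. Among the lower genes 8 differed at least 4-fold and 0 at least 8-fold. The median over all genes was 0.19, with an interquartile range from -0.03 to 0.38, so the double line was slightly above col for most genes. Rescaling by the median ratio, a factor of 1.13, lowered the median of all genes to 0.03 and gave 109 higher and 131 lower genes, so that higher genes made up 45.4% of the calls in place of 66.9%. Quantile normalisation gave 111 higher and 128 lower, with 46.4% higher. The excess of higher over lower genes therefore depends on the scaling, and each list median below is stated as its distance from the all-gene median. By name, 84 of the higher and 37 of the lower genes carry only a number.

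**Figure D2:**
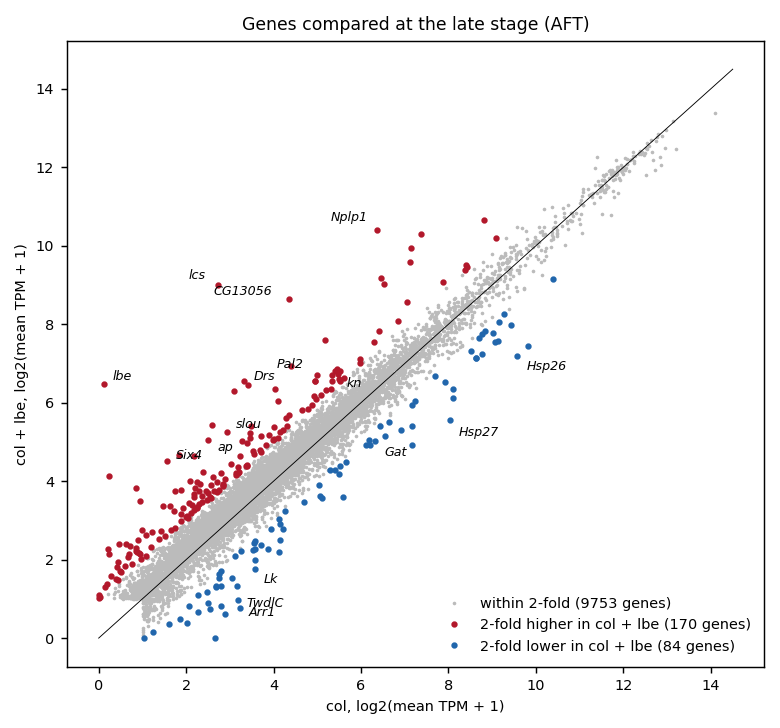
Mean level of the 10007 genes in col (x axis) and col + lbe (y axis) at AFT, both as log2(TPM + 1), with 1 point per gene, the line of equality, and genes 2-fold apart in colour. The 170 higher genes reach farther from the line than the 84 lower ones, with lbe, lcs, CG13056 and Nplp1 the farthest of the genes labelled.

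The position of both genotypes among the 5 at AFT was examined because the reference is a single mean. For 94 genes, 0.939% of those compared, col + lbe was 2-fold above each of the other 4 genotypes. For 15 genes (0.150%) it was 2-fold below each of them. Among the 170 higher genes, none had col 2-fold below all the others, and col + lbe had the highest mean in 161. Among the 84 lower genes, col itself stood 2-fold above the other 4 genotypes in 8 (CG11300, CG12951, CG15126, CG34278, CG42779, CG43400, Ebp and Lcp9), and col + lbe had the lowest mean in 64. By the 2-fold rule col + lbe thus stood apart in 94 of the 170 higher genes and in 15 of the 84 lower genes. In 76 higher and 61 lower genes neither col + lbe nor col stood apart. The calls themselves favour an extreme mean of col + lbe, so the counts of 161 and 64 only describe the called genes. An example with col high is Lcp9, a larval cuticle protein gene, at 6.41 TPM in col, 0.523 in col + lbe and 0.163 to 0.907 in the other 3 genotypes. CG15126 was at 5.32 TPM in col, listed at 0 in col + lbe and at 0.810 to 1.01 in the other genotypes. CG11300 was at 46.9 TPM in col, 11.2 in col + lbe and 0.876 to 5.09 elsewhere, so that col + lbe was the second highest mean. By contrast the odorant-binding protein gene Obp99a had its lowest mean in col + lbe, 38.4 TPM, against 120.0 in col, 211.2 in the control, 75.5 in lbe and 141.9 in ap + eya.

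Transcription factor genes were among the largest differences. Of 75 homeobox genes compared, 4 were higher (lbe, Six4, ap and slou) and 0 lower, with a median 0.06 below that of all genes. The call of lbe again follows from its construct. Six4, a sine oculis-related gene whose protein can act with Eya, was at 1.97 TPM in col and 21.9 in col + lbe, against 0.505 in the control, 2.04 in lbe and 2.15 in ap + eya. Its difference of 2.95 came with 1.98 at St16, where col + lbe again had the highest mean, 17.9 TPM. The NK homeobox gene slou, known for muscle identity, was at 6.67 TPM in col and 37.1 in col + lbe, with 4.25 to 5.16 in the other 3 genotypes. At St16 its difference was 1.30. These 2 genes, with lbe, ap and kn, are also the 5 higher genes of the 30 muscle and heart identity genes compared, so the lists share their members. Of those 5, lbe and kn are on the transgenes.

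Of 56 other transcription factor genes of neurons, 7 were higher (eya, slp1, nerfin-1, fd59A, dimm, kn and slp2) and 0 lower, with kn on a transgene. The forkhead genes slp1 and slp2, neighbours on 2L from 3825675 to 3839185, were at 3.61 and 3.09 TPM in col and at 13.2 and 7.40 in col + lbe. Their St16 differences were 0.22 and 0.28, and with either rescaling slp2 was no longer 2-fold apart. The zinc finger gene nerfin-1, which acts in newly born neurons, was at 1.10 TPM in col and 5.18 in col + lbe, while at St16 it was at 26.8 and 26.9. The forkhead gene fd59A was at 1.69 TPM in col and 5.58 in col + lbe, but at 7.53 in lbe against 2.64 in the control, so that it was higher with lbe in either background. The 10 Hox genes compared gave 0 calls, as did the 15 genes of BMP and target-derived signalling and the 8 E(spl) genes that respond to Notch. With 2.54% of all genes called, 0 calls in lists this short says little about them. None of the 33 neuroblast and cell cycle genes was called either, but 28 of them lay above the median of all genes, with a list median 0.32 above it.

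Next to lbe itself, lcs (lacosta, FBgn0028583, X from 21396727 to 21397316, minus strand) had the largest difference. It was at 5.58 TPM in col and 511.8 in col + lbe, a ratio of 91.7. The lbe mean was 83.1 TPM, beside 7.51 for the control and 5.24 for ap + eya, and at St16 all 5 genotypes were at or below 0.138 TPM. The level of lcs was thus higher with lbe alone and higher still with both factors. CG13056 (3L from 16333313 to 16333782) was at 19.5 TPM in col and 399.6 in col + lbe, with 13.3 in the control, 33.0 in lbe and 12.2 in ap + eya. CG17283 (3R from 17407876 to 17409460) was at 0.173 TPM in col and 16.7 in col + lbe, with 2.00 in lbe and at most 0.435 in the other genotypes. CG34273 differed by 3.21, at 7.55 TPM in col and 78.0 in col + lbe, but its level in lbe, 57.1 TPM, was nearly as high. Among the higher genes of at least 5 TPM, 16 known only by a number differed by more than the 12th largest of the genes with a symbol, and among the lower genes 6 did. Unc-115b, an actin-binding protein gene, differed by 2.31, from 15.4 to 80.6 TPM, with 57.3 in the control and 44.8 in lbe. Its locus on 3R from 9687060 to 9692775 overlaps that of p24-2, which was at 39.3 and 103.0 TPM, and the reads of both are uncertain. The level in col + lbe was within 2-fold of that in the control, so col and ap + eya, at 15.6 TPM, were the low genotypes.

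Neuropeptide precursor genes differed in both directions. Of 41 compared, 7 were higher (Nplp1, spab, Proc, CCHa2, Dh44, Nplp4 and Tk) and 4 lower (Hug, Lk, Ilp2 and NPF), with a median 0.07 below that of all genes. The precursor gene spab was at 3.25 TPM in col and 15.0 in col + lbe, with 2.22 to 4.35 elsewhere. Proctolin (Proc, chosen after its values were seen) was at 29.4 and 71.6 TPM, with 18.8 to 30.8 in the other genotypes. The calls of CCHa2, Dh44, Nplp4 and Tk sit at the threshold, with differences of 1.02 to 1.09 that both rescalings brought below 2-fold. Hugin (Hug) was at 7.99 TPM in col and 1.51 in col + lbe, a difference of -1.84. It was lower still in lbe, 0.277 TPM, with 11.4 in the control. Leucokinin (Lk) was at 10.9 TPM in col and 2.40 in col + lbe, and at 11.1 in the control and 2.01 in lbe. The insulin-like peptide gene Ilp2 was at 10.9 TPM in col and 2.99 in col + lbe, and at 14.6 in the control and 3.00 in lbe. NPF, chosen after its values were seen, was at 10.5 TPM in col and 3.73 in col + lbe, and at 12.8 and 5.78 in the control and lbe. All 4 lower precursor genes were thus low in both genotypes that carry the lbe construct, with lbe minus control differences from -3.28 for Hug to -1.02 for NPF. In ap + eya, which has no lbe construct, Hug, Lk and Ilp2 were also below the control, at 2.94, 5.85 and 7.27 TPM. NPF was at 10.4 TPM there. Lower levels of Hug, Lk and Ilp2 were therefore not confined to the lbe genotypes. At St16 the 4 genes differed by less than 2-fold, and Hug and Ilp2 were below 1 TPM in every genotype.

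Genes that process peptides and build dense core vesicles were mostly above their level in col. Of 23 compared, 5 were higher (Pal2, amon, dimm, 7B2 and svr) and 0 lower. Of the 23, 18 lay above the median of all genes, with a list median 0.26 above it. In 21 of them col + lbe had the highest mean of the 5 genotypes. It also did so in 26 of 34 pan-neuronal and synaptic genes, 28 of 37 peptide receptor genes and 36 of 74 axon guidance and adhesion genes. The share over all genes was not counted. Since col + lbe was slightly above col for most genes, these counts only describe the lists. The 23 processing genes summed to 690.3 TPM in col and 1115 in col + lbe, against 758 in the control, 639 in lbe and 666 in ap + eya. Pal2, an enzyme of peptide amidation, was at 30.8 TPM in col and 103.1 in col + lbe, with 29.7 to 32.9 in the other 3 genotypes. The prohormone convertase gene amon was at 18.6 and 47.7 TPM, with the other genotypes between 17.9 and 20.2. The gene 7B2, which encodes a partner of that convertase, was at 62.4 and 137.2 TPM, with 82.7 in the control. The carboxypeptidase gene svr was at 32.7 and 72.4 TPM. With median-ratio rescaling 7B2 and svr were no longer 2-fold apart. At St16 the differences of Pal2, amon, 7B2 and svr were 0.10, 0.21, 0.24 and 0.00, so that of the 5 genes only dimm differed by 2-fold there. The lbe minus control differences of these 5 genes lay between -0.38 and -0.10.

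**Figure D3:**
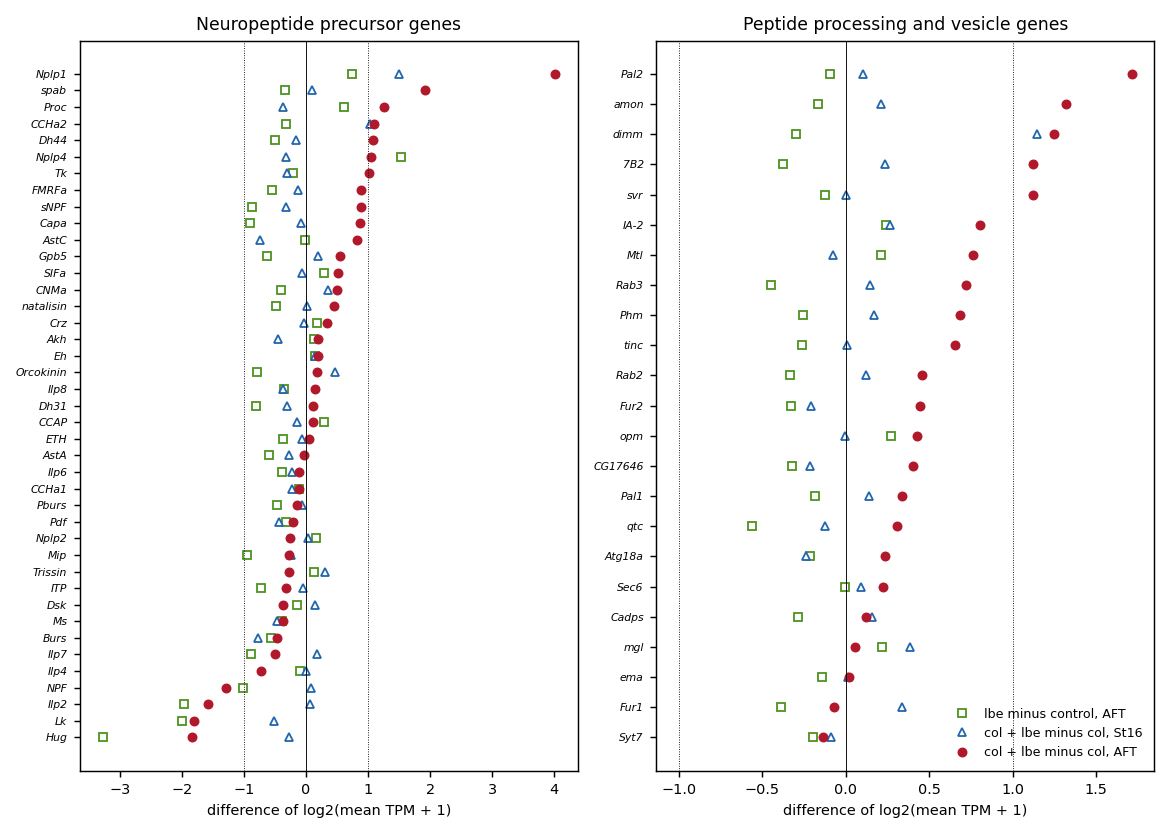
Differences of log2(TPM + 1) for 41 neuropeptide precursor genes (left) and 23 peptide processing and vesicle genes (right): col + lbe minus col at AFT (circles), the same at St16 (triangles) and lbe minus control at AFT (squares), with dotted lines at 2-fold. The processing genes lie mostly above 0 at AFT and near 0 at St16, while Hug, Lk, Ilp2 and NPF lie below -1 both with and without col.

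Receptors of peptides and peptide hormones were compared as the counterpart of the ligands. Of 37, 4 were higher (NPFR, CCHa1-R, TkR99D and Lgr4) and 0 lower, and 26 lay above the median of all genes. The largest difference was 1.17, for the NPF receptor NPFR, at 6.39 TPM in col and 15.6 in col + lbe, with 9.35 in the control. The other 3 differed by 1.01 to 1.10, and CCHa1-R, TkR99D and Lgr4 were no longer 2-fold apart with either rescaling, nor NPFR after quantile normalisation. The higher receptor calls therefore sit at the threshold.

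Genes of the small-molecule transmitters were compared next, beside 2.54% of all genes called in either direction. Of 25 monoamine genes 2 were higher and 0 lower. Hdc, which makes histamine, was at 1.79 TPM in col and 9.28 in col + lbe, with 1.75 to 1.91 in the other genotypes. Trh, which makes serotonin, was at 8.43 and 23.9 TPM, with 5.65 to 7.78 in the other genotypes. These 2 synthesis genes were apart from the other 4 genotypes at AFT, and at St16 both were below 1.80 TPM with differences of -0.03 and -0.11. None of 15 acetylcholine genes and none of 16 glutamate genes was called, and 1 of 9 GABA genes was lower. That gene, the glial GABA transporter Gat, was at 79.3 TPM in col and 31.3 in col + lbe, with 86.2 in the control, 58.5 in lbe and 72.5 in ap + eya. At St16 it was at 21.2 and 7.62 TPM, a difference of -1.36. Gat was also the single call among 24 glial genes, whose median was 0.10 below that of all genes. The glial transcription factor gene repo was at 6.52 TPM in col and 8.32 in col + lbe.

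General neuronal genes served to place these differences. None of 34 pan-neuronal and synaptic genes, 31 ion channel genes, 11 sensory channel genes or 74 axon guidance and adhesion genes was called, beside 2.54% of all genes. Their medians relative to all genes were 0.09, 0.06, -0.27 and -0.03. The neuronal gene elav was at 8.53 TPM in col and 8.87 in col + lbe. Of 44 genes of the dpr, DIP, beat and side families of surface proteins, only dpr17 was called, at 8.05 TPM in col and 19.5 in col + lbe, and after quantile normalisation it was not. Of the 11 circadian clock genes only vri, a clock repressor, was called, at 2.16 and 5.80 TPM, and with either rescaling it was not. Vision genes gave 1 call in each direction among 22, eya and the arrestin gene Arr1. Arr1 (2L from 18078269 to 18081307) was at 8.37 TPM in col and 0.688 in col + lbe, with 12.0 in the control, 5.22 in lbe and 4.07 in ap + eya. Its difference of -2.47 was the lowest among genes of at least 5 TPM with a symbol, next to that of Hsp27, and at St16 it was -1.08.

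Other tissues are present in whole embryos, and their genes were read as levels of those tissues. Muscle structural genes summed to 49121 TPM in col and 50479.6 in col + lbe, and only lcs of 33 was called. Since lcs was at or below 0.138 TPM in every genotype at St16, its call is not read as a level of muscle. None of 13 haemocyte genes and none of 27 tracheal and epidermal matrix genes was called, which in short lists is near the 2.54% of all genes. Of 13 fat body genes only tobi, an alpha-glucosidase gene that responds to insulin signalling, was called, at 4.17 TPM in col and 10.1 in col + lbe. Among 26 genes of the ecdysone cascade and moulting, the nuclear receptor gene Hr38 was higher, at 0.402 and 2.27 TPM, and Edg78E lower. Of 13 cell death genes 2 were higher, skl from 2.78 to 8.95 TPM and grim from 0.793 to 3.64 TPM. The grim mean was also higher in lbe, 2.62 TPM, than in the control, 0.747. Among the remaining lists, 88 ribosomal protein genes and 3 Osiris genes gave 0 calls, 12 insulin-like peptide and growth genes gave Ilp2, 44 chitin genes gave Muc96D (higher) and 13 metallothionein and zinc genes gave the zinc transporter ZnT35C (higher, 35.6 to 78.8 TPM). With median-ratio rescaling ZnT35C and tobi were no longer 2-fold apart.

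Antimicrobial genes were higher in several families. Of 29 compared, 7 were higher (Drs, IM23, AttA, AttB, Dro, PGRP-SA and AttC) and 0 lower, and 19 lay above the median of all genes. Drosomycin (Drs, 3L from 3369556 to 3369942), an antifungal peptide gene, was at 9.09 TPM in col and 92.4 in col + lbe, with 5.21 to 15.5 in the other genotypes. The Bomanin gene IM23 (now BomBc1) was at 5.00 TPM in col and 42.0 in col + lbe, with 2.69 to 7.48 elsewhere. Its neighbours CG43202, CG15067 (now BomBc2) and CG16836 were also called, in a run of 4 adjacent higher genes on 2R from 18381393 to 18389443. The attacin genes AttA and AttB and the drosocin gene Dro, adjacent on 2R from 14745961 to 14750165, were at 0.386, 3.95 and 1.33 TPM in col and at 4.30, 14.3 and 5.47 in col + lbe. Reads of AttA and AttB, which are close copies, are uncertain. GNBP-like3 was at 0.928 TPM in col and 10.2 in col + lbe, with 0.404 to 1.18 in the other genotypes. PGRP-SA and AttC passed 2-fold narrowly and did not with either rescaling. At St16 Drs was below 0.7 TPM and IM23 at or below 2.55 TPM in every genotype, and 0 of the 19 antimicrobial genes compared there was called.

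Gut and cuticle genes are turned on and off as the embryo matures, and their values are given with the control. Of 61 digestive enzyme genes 6 were higher (Npc2c, Amy-p, Jon65Aiv, tobi, LysS and Jon65Aiii) and 0 lower. They summed to 13805 TPM in col and 17981 in col + lbe, but to 4864 in the control, 10552 in lbe and 12606 in ap + eya, so the 4 misexpression genotypes all lay above the control. Amy-p, an amylase gene, was at 114.3 TPM in col and 271.3 in col + lbe, with 42.6 in the control. With median-ratio rescaling Jon65Aiv, LysS, Jon65Aiii and tobi were no longer 2-fold apart. Of 69 cuticle protein genes 1 was higher (Cpr49Ac) and 6 lower (Lcp9, Ccp84Af, Cpr49Ae, Cpr51A, Acp65Aa and Edg78E), with a median 0.45 below that of all genes, and col + lbe had the lowest mean of 5 in 40. The share of lowest means over all genes was not counted. Of the 47 cuticle protein genes compared at St16, 24 were lower, with a median 1.08 below that of all genes. Of 17 Tweedle genes, another cuticle protein family, 3 were lower (TwdlC, TwdlB and TwdlM) and 1 higher (TwdlO). TwdlC was at 8.05 TPM in col and 0.969 in col + lbe, with 21.9 in the control. TwdlB and TwdlM were at 518.6 and 573.2 TPM in col, at 220.1 and 264.7 in col + lbe and at 1291 and 1844 in the control. At St16, 8 of 13 Tweedle genes were lower. Cuticle and Tweedle genes thus gave more lower than higher calls at both stages, while the digestive genes gave 6 calls at AFT and 1 at St16. Whether the embryos of the genotypes differed in age was not tested.

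Of the gene lists examined, heat shock genes had the largest share of lower genes. Of 23 compared, 12 were lower, 0 were higher and 0 lay above the median of all genes, with a list median 1.19 below it. Hsp27, a small heat shock protein gene, was at 261.0 TPM in col and 46.2 in col + lbe, with 72.1 in the control, 78.8 in lbe and 303.7 in ap + eya. Hsp26 was at 760.2 and 144.9 TPM, with 306.6, 264.7 and 836.5 in the other 3 genotypes. The 6 Hsp70 copies, whose single values are uncertain because their sequences are nearly identical, summed to 1966 TPM in col and 521.9 in col + lbe, against 774.0 in the control, 910.9 in lbe and 2059 in ap + eya. In 17 of the 23 genes both col and ap + eya lay above the other 3 genotypes. Col + lbe had the lowest mean of the 5 genotypes in 14 of the 23, with a list median of -0.39 relative to the control. For both counts the share over all genes was not counted. The lower heat shock levels thus went with a high reference, and the list median of col + lbe was also below the control. The heat shock genes summed to 6671 TPM in col and 6903 in ap + eya, and to 3821, 3889.6 and 3225 in the control, lbe and col + lbe. At St16, 0 of 21 were called and their median was 0.23 above that of all genes.

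A similar look at mitochondrially encoded and glutathione transferase genes was chosen after their values were seen. Of 38 mitochondrially encoded genes, 30 were listed at 0 in all 5 genotypes, and 3 of the other 8 were lower (mt:ND4L, mt:ND6 and mt:ND2). mt:ND4L was at 534.7 TPM in col and 184.7 in col + lbe, with 250.2 in the control, 564.5 in lbe and 588.7 in ap + eya. In 8 of the 8 genes, control and col + lbe both lay below the other 3 genotypes. Of 25 GstD and GstE genes 5 were lower (GstD6, GstD4, GstD5, GstE7 and GstE8), and control and col + lbe lay below the other 3 genotypes in 14. How many of all genes have that order was not counted. Both groups therefore split the 5 genotypes in another way than the heat shock genes did. Without heat shock, mitochondrially encoded and glutathione transferase genes the count of lower genes was 64. How far differences of RNA quality or handling between the libraries took part was not tested.

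**Figure D4:**
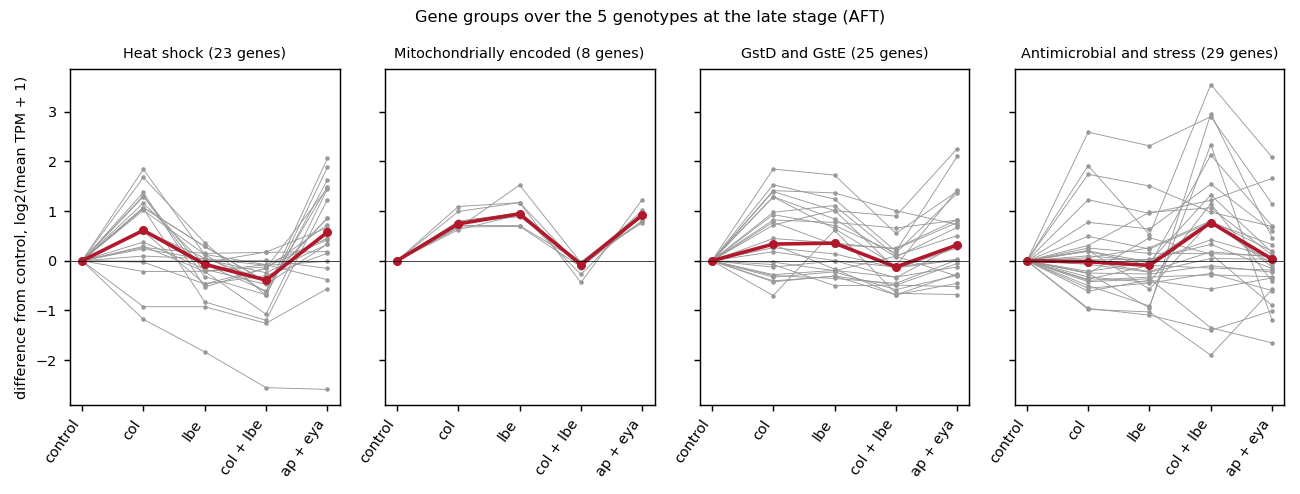
Difference from the control in log2(TPM + 1) at AFT for the genes of 4 groups (grey lines, 1 per gene; red line, group median) over the 5 genotypes. Heat shock genes are high in col and ap + eya, mitochondrially encoded genes are low in control and col + lbe, and several antimicrobial genes peak in col + lbe.

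The difference between lbe and the control was placed beside these values. The lbe minus control comparison shares no sample with the comparison of col + lbe and col, and gave 148 higher (1.48%) and 199 lower (1.99%) genes of 9990, together 3.47%. Of the 170 genes higher in col + lbe, 30 were also higher in lbe than in the control, 17.6% of the first list and 20.3% of the second. Beside lbe and lcs they included Six4, fd59A, grim, CG13056, CG17283, Amy-p, LysS, Nplp4 and TwdlO. In Six4, Amy-p, LysS, Nplp4 and TwdlO the control was the lowest mean, and col and ap + eya exceeded it as well. In LysS and Nplp4 they did so by more than lbe. LysS was at 338.2 TPM in col and 294.2 in ap + eya, against 160.7 in lbe and 23.4 in the control. The control mean of TwdlO, for example, was 3.69 TPM, against 41.0 to 73.2 for lbe, col and ap + eya. These calls were thus not confined to lbe. For lcs, fd59A, grim, CG13056 and CG17283 the lbe mean exceeded those of the control, col and ap + eya. In the opposite direction were 5 of the 170 (kn, phu, CG32817, CG43202 and CG5791), and 135 were within 2-fold. Of the 84 lower genes, 24 were lower in lbe than in the control as well, 28.6% and 12.1% of the lists. They included Hug, Lk, Ilp2, NPF, Arr1, Obp99a, Cpr51A, TwdlB, TwdlC and TwdlM. For Cpr51A, TwdlB, TwdlC and TwdlM the control stood 2-fold or more above every other genotype, so these lower levels were not confined to lbe either. Hug, Lk, Ilp2, NPF and Obp99a were lower in lbe than in col or ap + eya. Another 11 of the 84 were higher in lbe than in the control, among them GstD4, GstD5, mt:ND4L and mt:ND6. Across the 10007 genes the 2 sets of differences had a Pearson r of 0.11, a description over genes that come from the same libraries.

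The difference between col + lbe and col, less that between lbe and the control, is called the non-additive value. Among genes of at least 5 TPM it was largest for Drs (4.16), phu (4.08), IM23 (3.75) and CG13674 (3.59). For phu and CG13674 it reflected a high control, at 32.9 and 65.9 TPM against at most 5.12 and 9.30 in the 4 misexpression genotypes. Drs and IM23 were high in col + lbe alone. The lowest non-additive values belonged to CG34278 (-5.35), CG45079 (-4.80), CG42779 (-4.14) and CG12057 (-3.92), in which the control was the lowest mean. CG42779 was at 561.4 TPM in col, 228.0 in lbe and 188.1 in col + lbe, but at 37.6 in the control. CG34278, CG42779 and CG45079 are neighbours on 3R from 17120465 to 17124786. These values therefore depend on the control as much as on the double line.

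**Figure D5:**
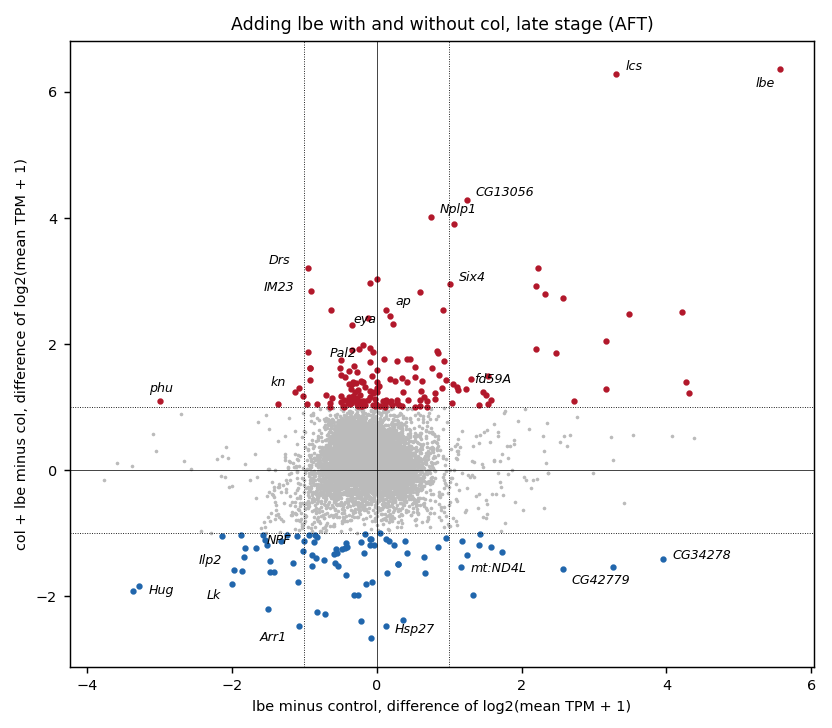
Difference of col + lbe minus col (y axis) against lbe minus control (x axis) at AFT, in log2(TPM + 1), 1 point per gene, with dotted lines at 2-fold. Most of the 170 higher genes (red) lie near 0 on the x axis, and lcs and lbe lie at the upper right.

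The same 2 genotypes at St16 come from other libraries, read as single reads of 50 bp in place of paired reads of 150 bp, and from another table. There 21 genes (0.216%) were higher and 142 (1.46%) lower of 9738 compared, together 1.67%. Of the 170 genes higher at AFT, 13 were also higher at St16, 7.65% of the AFT list and 61.9% of the St16 list. They were lbe, Nplp1, ap, eya, dimm, Six4, slou, CCHa2, Amy-p, Unc-115b, CG13056, CG15067 and CG31219. Of the transcription factor genes described, kn, slp1, slp2, nerfin-1 and fd59A were called at AFT and within 2-fold at St16 (-0.19 to 0.58). Of the peptide processing genes dimm was shared, and of the antimicrobial genes and their run on 2R CG15067 was. Of the 84 lower genes, 19 were lower at St16, 22.6% and 13.4% of the lists, among them Arr1, Gat, Lcp9, Cpr49Ae, TwdlB, TwdlC and TwdlM. Of the called genes, 114 of the higher and 60 of the lower ones passed 1 TPM at St16 at all.

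The calls were then set against the change between the stages in the control. Among 1982 genes whose control mean was 2-fold or more above its St16 value, 3.43% were higher in col + lbe and 2.22% lower. Among 5787 genes within 2-fold of each other at the 2 stages the shares were 1.11% and 0.501%. Among 2238 genes lower at AFT they were 1.70% and 0.492%, with a median difference of 0.28 against 0.04 in the genes higher at AFT. Levels across the stages are across separately made tables.

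The positions of the called genes were examined last. Of 169 higher genes with a position on BDGP6.54, 42 (24.9%) had a higher gene as a neighbour among the genes compared, against 2.93% of 9790 other genes. Of 81 lower genes on chromosome arms 22 (27.2%) had a lower neighbour, against 1.35% of 9878. The runs include the antimicrobial genes above, and CG12506, CG13946 and CG13947 on 2L from 773547 to 779655, at 140.5, 91.0 and 164.8 TPM in col and at 979.1, 520.0 and 1255 in col + lbe. In lbe these 3 genes were at 331.6, 153.9 and 391.9 TPM, between col and col + lbe. The runs of more than 2 lower genes were Hsp70Ba to Hsp70Bc on 3R from 12465453 to 12511461, GstD4 to GstD6 on 3R from 12374100 to 12377907, and CG34278, CG42779 and CG45079, given above. Adjacent copies of a family can share reads. By chromosome arm, higher genes made up from 1.02% of the genes on X to 2.09% of those on 2R.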

How the data were processed

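Whole-embryo RNA was sequenced to a depth of 30 to 50 M reads a library, per the labels' protocols. The authors deposited mean TPM values, 1 column per genotype and stage, and kallisto 0.43.1 with genome build BDGP6 was used, per the submitters' processing notes. No source used here states the step from transcripts to genes. That the columns are means of 3 replicates was checked on 23279 values: their triples were whole in the 4th decimal (tolerance 0.02) in 54.5%, and their other multiples up to 5 in 19.9% to 27.3%. The AFT columns sum to 984625 to 991941 TPM, but TPM keeps no depth, so the depth behind a value is unknown and no interval is given. A limma fit planned for columns of single samples could not be made.

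Differences of log2(TPM + 1) were computed for genes with at least 1 TPM in col or col + lbe. The filter lies between CG32269 (1.00 TPM, compared) and boss (0.999 TPM, not compared), and 915 genes are at 0 in both genotypes. Of the higher and lower calls, 33 and 14 are below 1 TPM in 1 of the genotypes, and 2 and 2 are listed at 0 in 1 of them. In each direction the 12 largest differences with a symbol and the 3 largest with only a number were named, among genes with at least 5 TPM, with the network genes, the called members of 39 gene lists (the 4 largest where more than 8 were called) and 4 non-additive genes per direction. Other genes were chosen after their values were seen, as were 2 more lists. The genes and lists were chosen with earlier results of these data known. Gene names that a spreadsheet had turned into dates, 5 per table, were restored. Positions come from BDGP6.54, in which 9968 of the 10007 genes were found, and newer symbols from RefSeq. Alternatives were other pseudocounts, filters, rescalings, thresholds and references. The computation was tested on simulated data and run in Python 3.11.15 with matplotlib 3.10.9, numpy 2.4.6 and pandas 2.3.3.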

Additional observations from a re-analysis of the deposited data

How the results depend on the processing

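As reported, 170 genes were higher and 84 lower, 78 members of lists were apart, 347 genes were apart between lbe and control and 163 at St16, and col + lbe stood apart from all other genotypes in 109 genes. A pseudocount of 0.1 gave 288 higher, 145 lower, 551 for lbe against control and 253 at St16. A pseudocount of 5 gave 75, 44, 46 list members, 189, 87 and 57. A threshold of 3-fold gave 49, 23, 28, 125, 59 and 29. The plain TPM ratio with no pseudocount, chosen after seeing the data, gave 318, 159, 591, 268 and, for col + lbe apart, 179. Median-ratio rescaling gave 109 higher and 131 lower, and quantile normalisation 111 and 128. The counts were the same with no filter. With a filter of 5 TPM, the median of the other 4 genotypes as reference, or without cuticle and gut genes, they stayed within 1.5 times the reported ones, as they did without heat shock, mitochondrial and glutathione transferase genes and without lbe and kn, both added after seeing the data. Against the median of the other 4 genotypes 3 single genes changed sign, CG11300 (1.17), CG34278 (0.46) and CG42779 (0.39), since col was their highest mean. Of the 90 named genes, 30 fell short of their call at a pseudocount of 5, 15 with median-ratio rescaling and 12 with quantile normalisation. With no filter, 22 of 39 list medians moved by more than 0.1, since genes near 0 TPM then enter.

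No paired analysis was possible because the table holds the authors' means and no columns of single replicates, and leaving out a replicate was not run for the same reason. No difference was set against replicate error. Each call rests on 2 means, and the higher kn level, the second UAS construct and lbe itself cannot be told apart in the double line.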

Other observations

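A few called genes lie outside the groups described and were chosen after their values were seen. The EGR family zinc finger gene sr was at 3.93 TPM in col and 12.5 in col + lbe, a difference of 1.46, with 3.03 to 4.63 TPM in the other genotypes. The antimicrobial precursor gene IMPPP (now BaraA2) was at 29.7 TPM in col and 93.3 in col + lbe, with 18.3 to 48.6 elsewhere. Its neighbour CG33470 had the same difference, 1.62, so the reads of both are uncertain. The small heat shock related gene l(2)efl went the other way from the heat shock genes, at 233.3 TPM in col and 534.2 in col + lbe. The DNA repair gene phr was at 4.83 TPM in col, 0.671 in col + lbe and 9.13 in ap + eya, but at 0.747 in the control and 0.579 in lbe.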
